A study of Mus musculus with 4 samples.

Results

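The genes described here are 40 genes whose products build or shape the extracellular matrix without being collagen chains themselves. They were taken by name from a fixed list of matrix glycoproteins, proteoglycans, elastic fibre and basement membrane proteins, lysyl oxidases, and the enzymes and chaperones that modify or trim collagen. All 40 names were found, once each, among the 55573 genes of the table. Of these genes, 38 had a mean of at least 1 RPKM (reads scaled by gene length and by library size) over the 4 libraries and entered the test. The other two, Eln and Fbn2, were below that level.

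The matrix of muscle is a mesh of collagen fibrils, elastic fibres and basement membrane to which cells attach and in which growth factors are held. Collagen chains are hydroxylated on proline and lysine and folded with dedicated chaperones in the endoplasmic reticulum, trimmed by proteases after secretion, and cross-linked by lysyl oxidases outside the cell. Muscle fibroblasts make much of this matrix, and muscle stem cells and the myoblasts that derive from them make some of it as well. The translation factor eIF5A, which carries the spermidine-derived amino acid hypusine, is known for helping ribosomes through stretches of consecutive prolines.

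Ribosome-protected RNA was sequenced from cultured primary myoblasts of mouse hind-limb muscle, at 3 weeks of age and on day 2 of proliferation in medium with FGF, in 2 WT libraries and 2 libraries labelled eIF5A-KO. In the study the knockout combined Pax7-CreERT2/+ with floxed eIF5A alleles and tamoxifen induction, on a C57BL/6j background, and the WT libraries are described as from littermates. Controls of this line appear both as Pax7-CreERT2/+ mice and as floxed mice without the Cre, and which of these the WT libraries came from is not given in the sources used here. The Cre acts only in cells that express Pax7, so other cells of a digested muscle keep the gene. Cells of both groups were held in cycloheximide, which keeps ribosomes on the mRNA, and the number of animals behind each library is not given in the sources used here. The p-values therefore measure the spread between these libraries, which may be technical.

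Recovered reads came to between 642429 and 704006 per library. Protein-coding genes held 41.5% and 33.9% of them in the WT libraries and 65.4% and 59.2% in the libraries labelled eIF5A-KO. Eif5a itself was at 34.9 and 65.2 RPKM in WT and at 60.3 and 59.4 RPKM in the libraries labelled eIF5A-KO, so the label was not borne out by a lower signal on the targeted gene (log2 fold change 0.32, SE 0.48, limma adjusted p = 0.839). Which exons those reads covered is not known from a table of gene values. The groups are named by their labels for that reason.

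Because eIF5A is known for proline stretches, the stretches coded by the members are shown first. A run of 3 or more prolines was coded by 8 of the 40 members, and 7 of these were tested: Hspg2, Fn1, Fbn1, Pcolce, Plod3, Nid2 and Fmod. The 4 with the highest mean RPKM are given below with their longest run (the first of equal length), read from GENCODE M21 transcripts on build GRCm38. Capitals mark the proline codons, with 4 codons on either side.
Hspg2: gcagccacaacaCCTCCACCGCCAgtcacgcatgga
Fn1: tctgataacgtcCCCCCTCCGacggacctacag
Fbn1: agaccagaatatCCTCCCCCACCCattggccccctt
Pcolce: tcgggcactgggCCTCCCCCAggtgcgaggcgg
The Hspg2 stretch lies on the plus strand at chr4:137510981-137511016 in coding exon sequence of exon 8 of 97, and codes prolines 264 to 267 of 4383 residues. Hspg2, the heparan sulphate proteoglycan perlecan, had 4 such runs. The Fn1 stretch lies on the minus strand, its run is in exon 19 of 46 and codes residues 907 to 909 of 2477, and with its flanks it spans an intron between chr1:71626218-71627166. The Fbn1 run is in exon 11 of 66 on the minus strand, at chr2:125389986-125390021, and codes residues 402 to 405 of 2873. The Pcolce run is in exon 4 of 10 on the minus strand, codes residues 155 to 157 of 493, and with its flanks spans an intron between chr5:137608669-137608900.

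The 7 tested members with a proline run lay on both sides of 0. Their log2 fold changes, eIF5A-KO label over WT on the log2(RPKM + 1) scale, ran from -0.77 for Nid2 to 1.29 for Fbn1, with 5 above 0 and 2 below. Their median was 0.63, against 0.49 over all 38 tested members, and it was 0.25 without eIF5A-KO library 1 and 0.39 without WT library 1. The share of tested genes that code such a run was 18.4% among the members and 25.8% among protein-coding genes. Whether a ribosome was held at any of these codons could not be read from values summed over a whole gene.

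Across the 38 tested members the ribosome-protected signal was more often above than below WT in the libraries labelled eIF5A-KO, and no member passed the test. The log2 fold change was above 0 in 29 members and below 0 in 9. Its median was 0.49, whereas the median was 0.00026 over all 11363 tested genes and 0.049 over the 9877 that are protein-coding. In bulk libraries a different number of cells of a type and a different signal per cell cannot be told apart. At a limma adjusted p under 0.05 (Benjamini-Hochberg over all tested genes) 0 members were called, while 0.106% of all tested genes were. The smallest adjusted p of a member was 0.635, for Vcan.

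At an unadjusted limma p under 0.05, 3 members were higher in the libraries labelled eIF5A-KO, namely Vcan, Postn and Loxl3, and 0 were lower. The background at that threshold was 2.86% of all tested genes higher and 4.46% lower. Fitted as recovered reads with limma-voom, 39 members entered, 0 were called at an adjusted p under 0.05 (background 0.425%), 7 were higher at an unadjusted p under 0.05 (background 3.48%) and 2 were lower (background 6.66%). The 7 were Vcan, Postn, Loxl3, Lum, Fbn1, Plod2 and P4ha1, and the 2 were Fbln1 and Fbln5. With 2 libraries against 2, exact permutation of the labels for 1 gene gives a two-sided p of 0.333 at the least.

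The groups did not overlap in 17 members. In 11 of them both libraries labelled eIF5A-KO were above both WT libraries, against 20.1% of all tested genes and 22.4% of protein-coding ones. In 6 they were below both, against 20.3% of all tested genes and 19.3% of protein-coding ones. The 6 and the 11 of 38 members both lie near the background shares, and no result about the members is read from either count. In the remaining 21 members the ranges of the groups overlapped.

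**Figure D1:**
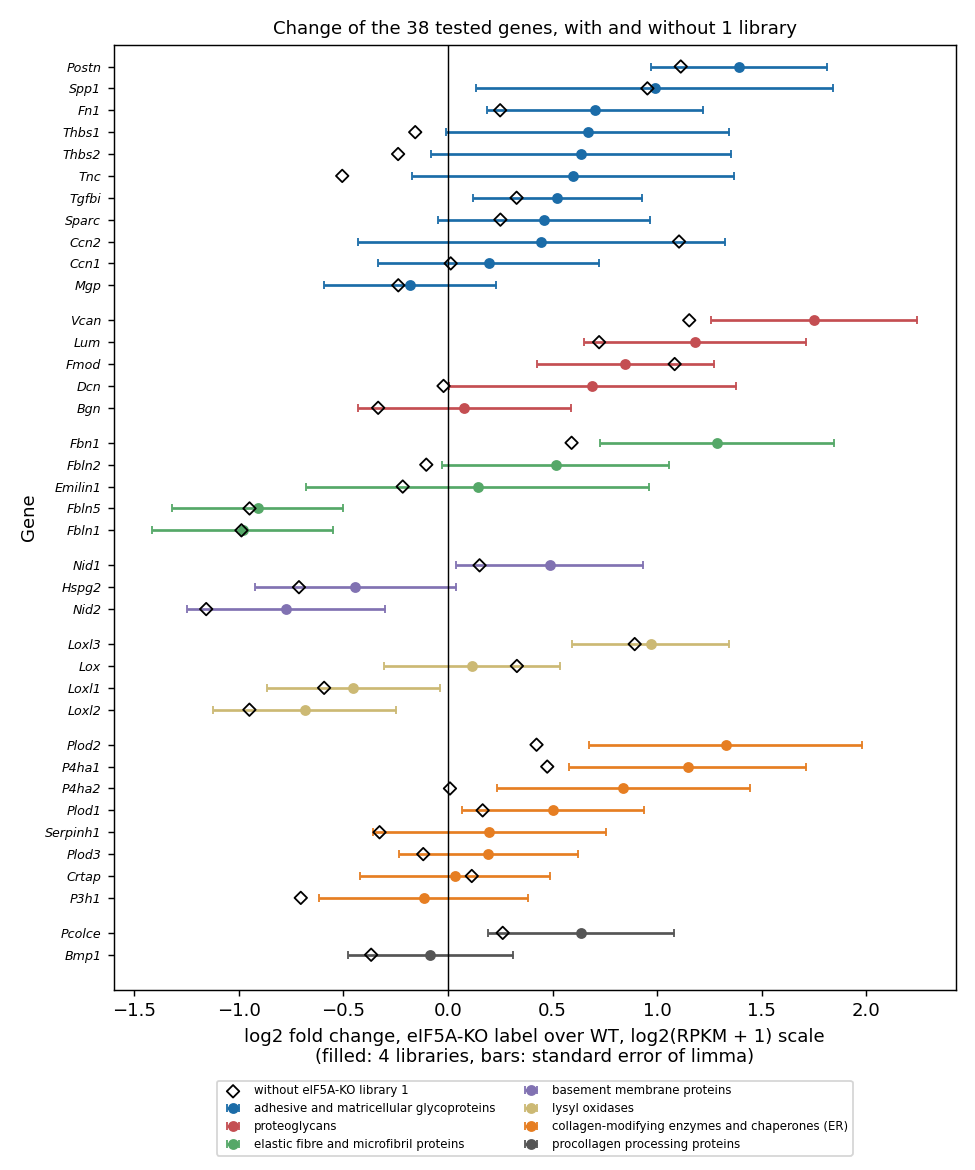
Log2 fold change (eIF5A-KO label over WT, log2(RPKM + 1) scale) of the 38 tested genes by role, as filled points with bars for the limma standard error, and the value without eIF5A-KO library 1 as open diamonds. Of the filled points 29 lie above 0 and 9 below, and of the diamonds 20 lie above 0.

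The median of the list went largely with a single library. The signal in eIF5A-KO library 1 exceeded that in eIF5A-KO library 2 in 34 of 38 members (89.5%), whereas it did so in 48.1% of protein-coding tested genes. The median difference between these libraries was 0.67 on the log2(RPKM + 1) scale over the members and -0.027 over protein-coding genes. In 12 members (31.6%) library 1 was over 2-fold above library 2, against 9.69% of protein-coding genes, and the reverse held for 1 member, Ccn2.

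Set against the WT pair, the libraries labelled eIF5A-KO gave different counts. Library 1 was above both WT libraries in 26 members (68.4%, against 35.5% of protein-coding genes) and below both in 6. Library 2 was above both in 12, below both in 13 and between them in 13, and its 31.6% above both and 34.2% below both stood beside 34.2% and 30.0% of protein-coding genes. Without eIF5A-KO library 1 the median of the members was 0.012 with 20 of 38 above 0, and without eIF5A-KO library 2 it was 0.72 with 28 above 0. Without WT library 1 it was 0.40, and without WT library 2 it was 0.35. Over the 4 libraries left out in turn, 22 of the 38 members kept their sign, 15 of them above 0 and 7 below, and 16 members turned at least once.

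**Figure D2:**
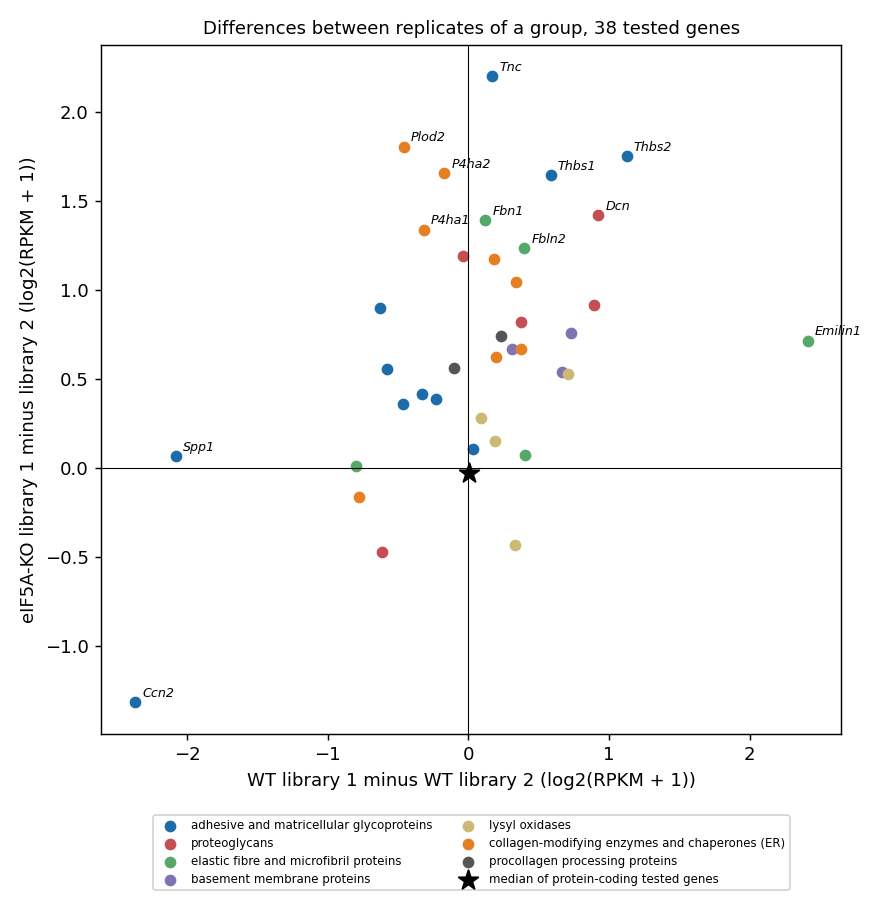
Difference between the replicates of each group for the 38 tested genes, with WT library 1 minus 2 on the horizontal axis and eIF5A-KO library 1 minus 2 on the vertical axis, both in log2(RPKM + 1). In 34 of 38 genes the point lies above 0 on the vertical axis, while the median of protein-coding genes (star) lies at -0.027.

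The share of protein-coding reads that fell on the 40 members showed the same library. It was 2.13% (95% Wilson interval 2.08 to 2.19) and 2.31% (2.25 to 2.38) in WT, 3.66% (3.61 to 3.71) in eIF5A-KO library 1 and 2.24% (2.19 to 2.29) in eIF5A-KO library 2. On this denominator library 2 lay between the WT libraries, and the groups overlapped. As a share of all recovered reads, of which protein-coding genes held more under the eIF5A-KO label, the members took 0.885% and 0.783% for WT against 2.39% and 1.33%, and there the groups did not overlap. The mean shares of protein-coding reads were 2.22% ± 0.127 (SD, n = 2) and 2.95% ± 1.00 (SD, n = 2). Without Spp1, the member with the most reads, the shares were 1.96% and 1.61% for WT against 3.03% and 1.60% under the eIF5A-KO label.

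**Figure D3:**
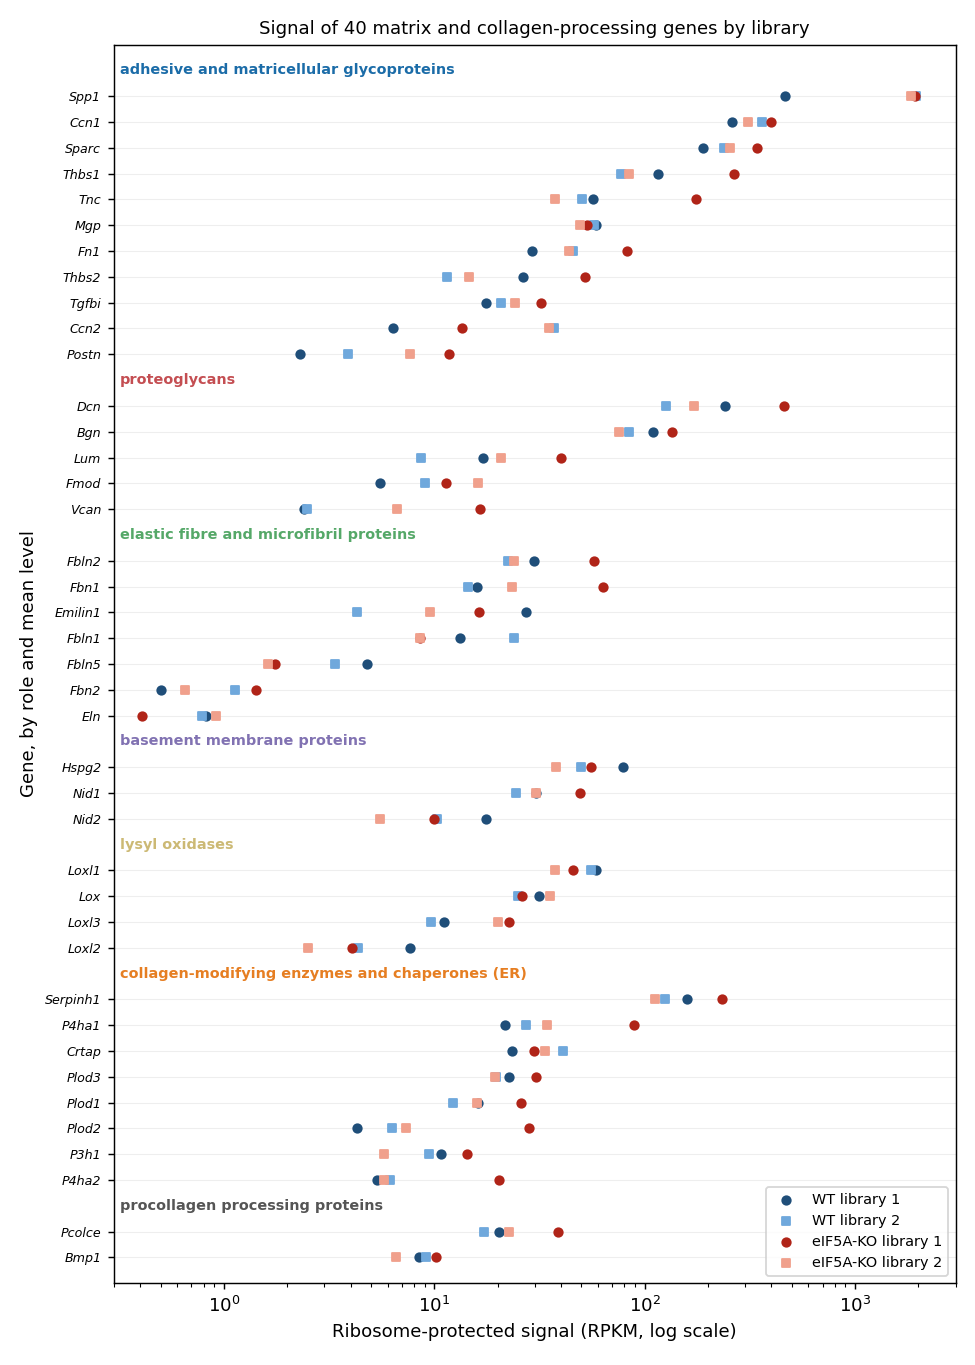
Ribosome-protected signal of the 40 genes (RPKM, log axis), ordered by role and mean level, with WT libraries 1 and 2 (dark and light blue) and eIF5A-KO libraries 1 and 2 (dark and light red) as separate points. eIF5A-KO library 1 holds the highest value in 25 of the 38 tested genes.

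The 11 adhesive and matricellular glycoproteins, which bind cells or regulate how cells attach, had the members with the highest signal. Of these 10 were above 0, with a median log2 fold change of 0.60, and without eIF5A-KO library 1 the count was 7 and the median 0.25. Spp1, which codes for osteopontin, had the highest mean RPKM of all tested protein-coding genes. It was at 463 and 1958 RPKM in WT and at 1935 and 1845 RPKM in the libraries labelled eIF5A-KO. WT library 1 alone was low, with 460 reads, and the other 3 lay close together. Its log2 fold change was 0.99 (SE 0.85, limma adjusted p = 0.729), and without WT library 1 it was -0.051.

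Ccn1, an integrin-binding matricellular protein, was at 261 and 362 RPKM in WT and at 399 and 310 RPKM in the libraries labelled eIF5A-KO. The groups overlapped (log2 fold change 0.19, SE 0.53). Its relative Ccn2, also called connective tissue growth factor, was at 6.38 and 37.1 RPKM in WT and at 13.5 and 35.1 RPKM in the libraries labelled eIF5A-KO. Both groups thus held 1 low and 1 high library, and 11 reads stood behind the lowest value. For Ccn2 the log2 fold change, 0.45, ran from -0.74 to 1.63 with a library left out.

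Postn, which codes for the adhesive matrix protein periostin, had the highest log2 fold change of these glycoproteins. On the plus strand at chr3:54361109-54391037, it was at 2.29 and 3.90 RPKM in WT (12 and 16 reads) and at 11.8 and 7.68 RPKM in the libraries labelled eIF5A-KO (93 and 54 reads). Both of the latter were above both WT libraries. The log2 fold change was 1.39 (SE 0.42, limma unadjusted p = 0.0168, adjusted p = 0.650), and it was 1.11 without eIF5A-KO library 1.

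The thrombospondins and tenascin-C, large adhesion-modulating glycoproteins, differed mainly between the libraries labelled eIF5A-KO. Tnc was at 56.6 and 50.3 RPKM in WT and at 175 and 37.3 RPKM in the libraries labelled eIF5A-KO, so library 1 was 4.70 times library 2. Thbs1 was at 116 and 76.9 RPKM in WT and at 267 and 84.6 RPKM in the other group, and Thbs2 at 26.3 and 11.5 RPKM against 51.8 and 14.7 RPKM. For all 3 genes library 2 lay within or below the range of the WT libraries. Their log2 fold changes of 0.60, 0.67 and 0.64 were -0.50, -0.16 and -0.24 without eIF5A-KO library 1.

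Fn1, which codes for fibronectin, the glycoprotein that links integrins to collagen, was at 29.1 and 45.4 RPKM in WT and at 82.1 and 43.4 RPKM in the libraries labelled eIF5A-KO. Again library 1 alone was above WT (log2 fold change 0.70, SE 0.52, and 0.25 without library 1). Sparc, a collagen-binding glycoprotein, was at 190.0 and 239 RPKM in WT and at 340.0 and 254 RPKM in the libraries labelled eIF5A-KO, without overlap (0.46, SE 0.51, limma adjusted p = 0.773, and 0.25 without eIF5A-KO library 1). Tgfbi, an adhesion protein induced by TGF-beta, was at 17.6 and 20.8 RPKM against 32.2 and 24.3 RPKM, also without overlap. Mgp, the matrix Gla protein that restrains calcification, was the single gene of this role below 0, at 58.7 and 57.2 RPKM against 52.9 and 49.0 RPKM (log2 fold change -0.18).

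The 5 proteoglycans placed outside the basement membrane, core proteins that carry glycosaminoglycan chains, were above 0, with a median log2 fold change of 0.85, while the basement membrane proteoglycan Hspg2 was below 0. Without eIF5A-KO library 1 the median of the 5 was 0.72 and 3 were above 0, and without eIF5A-KO library 2 it was 1.40. Vcan, the large hyaluronan-binding proteoglycan versican on the minus strand at chr13:89655312-89742509, had the highest value of all members. It was at 2.41 and 2.50 RPKM in WT (21 and 17 reads) and at 16.5 and 6.68 RPKM in the libraries labelled eIF5A-KO (217 and 78 reads). Both of the latter were above both WT libraries, and they were 2.48-fold apart. The log2 fold change was 1.75 (SE 0.49, limma unadjusted p = 0.0126, adjusted p = 0.635), and it was 1.15 without eIF5A-KO library 1. Fitted as reads with limma-voom it was 2.07 (adjusted p = 0.0857).

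The small leucine-rich proteoglycans bind collagen fibrils and set their spacing and width. Dcn (decorin) was at 240 and 126 RPKM in WT and at 460 and 171 RPKM in the libraries labelled eIF5A-KO (log2 fold change 0.69, SE 0.69). Bgn (biglycan) was at 109 and 83.9 RPKM against 135 and 75.7 RPKM (0.078, SE 0.51). In both genes library 1 of the label was the highest of the 4 and library 2 was no higher than the upper WT library. Without library 1 their values were -0.021 for Dcn and -0.33 for Bgn.

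Lum (lumican) and Fmod (fibromodulin) were lower in level, and their groups did not overlap. Lum was at 16.9 and 8.67 RPKM in WT (25 and 10 reads) and at 40.1 and 20.7 RPKM in the libraries labelled eIF5A-KO, with a log2 fold change of 1.18 (SE 0.53, limma adjusted p = 0.676) that was 0.72 without eIF5A-KO library 1. Fmod was at 5.52 and 8.99 RPKM against 11.3 and 16.1 RPKM, with a log2 fold change of 0.85 (SE 0.42). With a library left out the Fmod value ran from 0.54 to 1.16. In Fmod, unlike the other 4 proteoglycans, library 2 of the label was the higher of its pair.

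The elastic fibre and microfibril genes lay on both sides of 0. Elastic fibres are built of elastin on a scaffold of fibrillin microfibrils, with fibulins and emilins at their surface. Of 7 genes 5 were tested, with 3 above 0 and 2 below and a median of 0.14, which ran from -0.58 without WT library 2 to 0.71 without WT library 1 and was -0.22 without eIF5A-KO library 1. Eln, the elastin gene, was on 4 and 3 reads in the WT pair, against 3 and 6 under the eIF5A-KO label. Fbn2, another fibrillin, was on 4 and 7 reads against 17 and 7. Fitted as reads with limma-voom, Fbn2 was at a log2 fold change of 0.43 (SE 0.78, adjusted p = 0.853), and Eln had too few reads to enter that fit.

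Fbn1, which codes for fibrillin-1, the main microfibril protein, was at 15.9 and 14.5 RPKM in WT (116 and 83 reads) and at 63.0 and 23.4 RPKM in the libraries labelled eIF5A-KO (693 and 229 reads). Both of the latter were above both WT libraries, and library 1 was 2.69-fold above library 2. The log2 fold change was 1.29 (SE 0.56, limma adjusted p = 0.675), against 0.59 without eIF5A-KO library 1.

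The fibulins likewise lay on both sides. Fbln1 was at 13.3 and 23.8 RPKM in WT (35 and 49 reads) and at 8.58 and 8.50 RPKM in the libraries labelled eIF5A-KO (34 and 30 reads), and its log2 fold change of -0.98 (SE 0.43, limma adjusted p = 0.675) was the lowest of all members. Fbln5, an integrin-binding fibulin needed for elastic fibre assembly, was at 4.80 and 3.38 RPKM in WT (20 and 11 reads) and at 1.75 and 1.61 RPKM in the libraries labelled eIF5A-KO (11 and 9 reads), with a log2 fold change of -0.91 (SE 0.41, limma adjusted p = 0.676). Both libraries of the label were below both WT libraries in these genes, and without eIF5A-KO library 1 the values were -0.99 and -0.95. Without WT library 2 the value of Fbln1 was -0.58, and with the same sum of reads over all genes Fbln1 was at -0.41 and Fbln5 at -0.48. Fbln2, by contrast, was at 29.7 and 22.3 RPKM against 57.6 and 23.9 RPKM, with overlapping groups (0.51, SE 0.54). Emilin1, an elastin-associated glycoprotein, was at 27.2 and 4.30 RPKM in WT, a wider gap than between its libraries labelled eIF5A-KO at 16.3 and 9.53 RPKM, and its value of 0.14 ran from -1.06 to 1.35 with a library left out.

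Over the 3 basement membrane genes the median was -0.44 on the log2 scale. With a library left out it ran from -0.78 without WT library 2 to -0.11 without WT library 1. Hspg2 was at 79.2 and 49.5 RPKM in WT and at 55.5 and 37.9 RPKM in the libraries labelled eIF5A-KO, with overlapping groups (-0.44, SE 0.48, limma adjusted p = 0.770). Nid1 and Nid2 code for the nidogens, which join laminin to collagen IV. Nid1 was at 30.6 and 24.5 RPKM in WT and at 49.1 and 30.5 RPKM in the libraries labelled eIF5A-KO (0.49, SE 0.45, and 0.15 without eIF5A-KO library 1). Nid2 was at 17.6 and 10.3 RPKM against 10.0 and 5.50 RPKM, a small gap without overlap (-0.77, SE 0.47, limma adjusted p = 0.697). With a library left out the Nid2 value ran from -1.15 to -0.39, and with the same sum of reads over all genes it was -0.22. The values of these nidogens thus lay on opposite sides of 0, each within 2 standard errors of it.

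The 4 lysyl oxidases tested, copper enzymes that start collagen and elastin cross-links, also lay on both sides of 0, with 2 above, 2 below and a median of -0.17, which ran from -0.27 to -0.025 with a WT library left out. Loxl3, on the plus strand at chr6:83034173-83052562, was at 11.2 and 9.68 RPKM in WT (31 and 21 reads) and at 22.5 and 20.2 RPKM in the libraries labelled eIF5A-KO (94 and 75 reads). The libraries of each group lay close together and the groups were apart. The log2 fold change was 0.97 (SE 0.38, limma unadjusted p = 0.0428, adjusted p = 0.672), and 0.89 without eIF5A-KO library 1.

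The other lysyl oxidases had lower log2 fold changes than Loxl3, and Lox and Loxl1 had higher levels. Lox, the founding enzyme of the family, was at 31.6 and 24.9 RPKM in WT and at 26.1 and 35.5 RPKM in the libraries labelled eIF5A-KO (log2 fold change 0.11, SE 0.42). Loxl1, required for elastic fibre upkeep, was at 58.9 and 55.4 RPKM against 45.8 and 37.6 RPKM, without overlap (-0.45, SE 0.41, limma adjusted p = 0.732). Loxl2, which cross-links collagen IV among other substrates, was at 7.67 and 4.32 RPKM against 4.08 and 2.52 RPKM (-0.68, SE 0.44), on 25, 11, 20 and 11 reads. With a library left out the Loxl2 value ran from -1.04 to -0.33, and with the same sum of reads over all genes it was -0.20. Loxl1 had the highest coding GC content of the tested members, and with the GC trend removed its log2 fold change was 0.039.

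Of the 8 collagen-modifying enzymes and chaperones of the endoplasmic reticulum, 7 were above 0, with a median log2 fold change of 0.35, and without eIF5A-KO library 1 the count was 5 and the median 0.062. That library held the highest value of the 4 in 7 of the 8, and was over 2-fold above library 2 in 5. P4ha1, the catalytic alpha subunit of collagen prolyl 4-hydroxylase, was at 21.8 and 27.3 RPKM in WT (54 and 53 reads) and at 88.4 and 34.3 RPKM in the libraries labelled eIF5A-KO (330 and 114 reads). Its groups did not overlap (1.15, SE 0.56, limma adjusted p = 0.676), and without eIF5A-KO library 1 the value was 0.47. P4ha2, an alternative alpha subunit, was at 5.32 and 6.12 RPKM against 20.3 and 5.75 RPKM, with library 2 of the label between the WT libraries (0.84, SE 0.60). Without library 1 its value was 0.0099.

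Plod2, the lysyl hydroxylase that acts on the collagen telopeptides, was at 4.31 and 6.30 RPKM in WT (14 and 16 reads) and at 28.2 and 7.35 RPKM in the libraries labelled eIF5A-KO (138 and 32 reads). Library 1 was 3.84-fold above library 2, which was itself just above WT. The log2 fold change was 1.33 (SE 0.65, limma adjusted p = 0.676), and 0.42 without eIF5A-KO library 1. The other lysyl hydroxylases were nearer to 0, with Plod1 at 0.50 (SE 0.43) and Plod3, which also adds sugars to hydroxylysine, at 0.19 (SE 0.43). Without eIF5A-KO library 1 these were 0.17 and -0.12.

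Serpinh1, which codes for the collagen-specific chaperone HSP47, was at 158 and 125 RPKM in WT and at 232 and 112 RPKM in the libraries labelled eIF5A-KO. The groups overlapped (0.20, SE 0.56), and without eIF5A-KO library 1 the value was -0.33. P3h1 and Crtap, partners in the complex that 3-hydroxylates collagen prolines, were at -0.12 (SE 0.50) and 0.033 (SE 0.45). Crtap was the single gene of this role in which library 1 was not the higher of its pair, at 29.9 and 33.5 RPKM.

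The procollagen processing proteins act after secretion. Bmp1, the protease that removes the C-terminal propeptide, was at 8.42 and 9.09 RPKM in WT and at 10.2 and 6.56 RPKM in the libraries labelled eIF5A-KO (-0.084, SE 0.39). Pcolce, the enhancer of that cleavage, was at 20.4 and 17.2 RPKM against 38.6 and 22.7 RPKM, without overlap (0.63, SE 0.44, limma adjusted p = 0.701). Without eIF5A-KO library 1 the Pcolce value was 0.26.

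Members whose coding sequence was poorer in G and C had higher log2 fold changes. Over the 38 tested members Spearman's rho between log2 fold change and coding GC content was -0.64, and over 9869 protein-coding genes it was -0.36. These are correlations across genes that share the same 4 libraries. The 10 members of lowest GC content (44.2% to 53.3%) were at a median of 1.16 with 9 above 0, and the 10 of highest GC content (58.0% to 64.7%) were at 0.13 with 7 above 0. Vcan, Postn, Lum, Plod2 and P4ha1 are all among the former. The difference between the libraries labelled eIF5A-KO had a rho of -0.42 with GC content over the members and of -0.19 over protein-coding genes.

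With the GC trend removed within each library, the median of the members was 0.58 with 32 of 38 above 0. The 10 members of lowest GC content were then at 0.91 and the 10 of highest at 0.46. The sign of Loxl1, P3h1 and Bmp1 turned, and Hspg2 moved from -0.44 to -0.089. Coding length had a rho of 0.085 with the log2 fold change over the members.

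**Figure D4:**
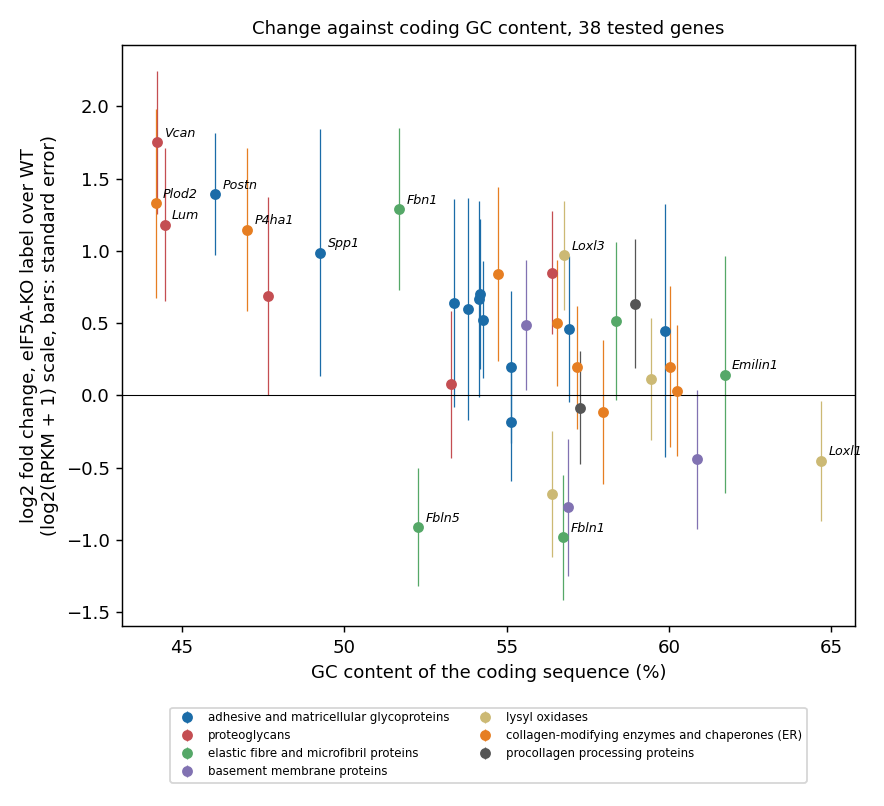
Log2 fold change (eIF5A-KO label over WT, log2(RPKM + 1) scale, bars for the standard error) against the GC content of the coding sequence in percent, for the 38 tested genes coloured by role. The 10 genes of lowest GC content have a median of 1.16 and the 10 of highest a median of 0.13.

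The prolyl 4-hydroxylase subunits P4ha1 and P4ha2 were among the 12 members over 2-fold higher in eIF5A-KO library 1 than in library 2. Tnc at 4.70-fold and Plod2 at 3.84-fold stood further apart. The bases upstream of the starts of the prolyl 4-hydroxylase subunits were read as well. The promoters, 250 bases before the RefSeq start on build GRCm38.p6, are at chr10:59323046-59323295 for P4ha1 and chr11:54100674-54100923 for P4ha2, both on the plus strand. That start of P4ha2 lies inside the interval that the table gives for the gene. Capitals mark the pentamer ACGTG, or CACGT where it is on the other strand, a core found in elements bound by several basic helix-loop-helix factors.
P4ha1: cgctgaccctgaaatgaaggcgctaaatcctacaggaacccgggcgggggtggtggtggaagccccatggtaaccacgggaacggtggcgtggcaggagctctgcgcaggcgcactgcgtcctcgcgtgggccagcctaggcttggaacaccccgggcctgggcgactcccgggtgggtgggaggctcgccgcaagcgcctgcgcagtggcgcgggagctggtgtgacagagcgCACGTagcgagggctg
P4ha2: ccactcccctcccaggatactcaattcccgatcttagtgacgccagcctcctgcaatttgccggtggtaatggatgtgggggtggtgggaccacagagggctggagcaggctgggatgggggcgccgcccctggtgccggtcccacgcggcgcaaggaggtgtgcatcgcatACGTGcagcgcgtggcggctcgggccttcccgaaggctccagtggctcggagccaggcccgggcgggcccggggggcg
The pentamer, chosen after the values were seen and searched on both strands, was present in 16.6% of 32851 RefSeq promoters and in at least 1 promoter of 18.5% of 27025 genes. Of the members 25 had an entry, and 6 (24%) held it, namely Fbln1, Plod3, P4ha1, P4ha2, P3h1 and Serpinh1. Of the 7 endoplasmic reticulum members with an entry, 5 held it. P4ha1 and P4ha2 are among these, and the pentamer was chosen after the values were seen, so this count is no test of enrichment. The log2 fold changes of the 6 were -0.98 for Fbln1, 0.19 for Plod3, 1.15 for P4ha1, 0.84 for P4ha2, -0.12 for P3h1 and 0.20 for Serpinh1. Without eIF5A-KO library 1 they were -0.99, -0.12, 0.47, 0.0099, -0.70 and -0.33 in the same order. Of the members over 2-fold higher in library 1 than in library 2, P4ha1, P4ha2, P3h1 and Serpinh1 held the pentamer. Tnc, Thbs2, Vcan, Fbn1 and Fbln2 had an entry without it, and Thbs1, Dcn and Plod2 had no entry.

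Other genes of the same processes were counted in the same way. Of 18 further collagen-processing genes 15 were tested and 10 were above 0, with a median of 0.28 that was 0.071 without eIF5A-KO library 1. Of 32 further matrix genes 28 were tested and 19 were above 0, with a median of 0.33 that was 0.17 without eIF5A-KO library 1. Of the 28, 2 were higher and 1 lower at an unadjusted limma p under 0.05 (backgrounds 2.86% and 4.46% of all tested genes). Among the TGF-beta ligands and receptors, which control many matrix genes, 1 of the 5 tested was above 0, with a median of -0.19 and overlapping groups in all 5. WT library 1 was the highest of the 4 in 4 of these 5, and without it 4 were above 0 with a median of 0.36. Without WT library 2, 1 was above 0 and the median was -0.79. No gene of these lists passed the adjusted threshold.

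Of these genes, Ltbp3, which codes for a latent TGF-beta binding protein, was the lowest, at 17.0 and 12.2 RPKM in WT and at 5.47 and 5.05 RPKM in the libraries labelled eIF5A-KO (log2 fold change -1.30, SE 0.38, limma adjusted p = 0.650). Prelp, a leucine-rich matrix protein, followed at 39.9 and 8.22 RPKM against 10.98 and 5.48 RPKM, with overlapping groups. The highest were Comp, a thrombospondin of cartilage and tendon, on 2 and 0 reads in the WT pair against 12 and 9 under the eIF5A-KO label, and Efemp1, a fibulin family member, on 1 and 2 reads against 19 and 6. The WT counts of Comp and Efemp1 were under the floor of 3 reads, so no fold is given for them.

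Markers of other cells were read beside the members, since matrix genes are shared with muscle fibroblasts. The 12 fibroblast markers summed to 332 and 272 RPKM in WT and to 494 and 281 RPKM in the libraries labelled eIF5A-KO, with 7 of 9 tested above 0 and a median of 0.23 (0.060 without eIF5A-KO library 1). Of the 9 tested, 3 were higher and 1 lower without overlap (backgrounds 22.4% and 19.3% of protein-coding genes). None of the 12 was at 0 in all libraries. Pdgfra, a defining marker of these cells, was at 43.4 and 31.6 RPKM in WT and at 88.2 and 43.6 RPKM in the libraries labelled eIF5A-KO, so library 1 was the highest here as in most members. Thy1 was lower without overlap, at 14.4 and 17.0 RPKM against 12.9 and 11.2 RPKM, and Cd248 was also below 0. Among the tested fibroblast markers, library 1 was not the highest in Thy1, Cd248 or Pi16. The 11 myoblast markers were all detected and summed to 359 and 217 RPKM in WT and to 125 and 139 RPKM in the libraries labelled eIF5A-KO, with 10 of 11 below 0 and a median of -1.03. Of these 7 were lower without overlap (background 19.3% of protein-coding genes). At an unadjusted limma p under 0.05, 5 were lower (background 4.46% of all tested genes). Among these, Myog was at 90.98 and 4.26 RPKM in WT (82 and 3 reads) and on 1 and 2 reads under the eIF5A-KO label. The WT level of Myog thus came mainly from WT library 1, as did much of the gap between the WT sums. Vcam1 alone was above 0, and was higher without overlap (log2 fold change 0.92, background 22.4% of protein-coding genes). Without eIF5A-KO library 1 the median of the 11 was -0.84. Myod1, the myogenic determination factor, was at 139.9 and 117 RPKM against 48.6 and 79.8 RPKM. Their part in the values of the members was not tested.

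Endothelial markers summed to 138 and 139 RPKM in WT and to 177 and 145 RPKM in the libraries labelled eIF5A-KO. Of the 6 tested 6 were above 0, with a median of 0.38 (0.17 without eIF5A-KO library 1) and 4 higher without overlap (background 22.4% of protein-coding genes). Smooth muscle and pericyte markers summed to between 115 and 182 RPKM, with 1 of 5 tested above 0, 3 lower without overlap (background 19.3% of protein-coding genes) and a median of -0.59 (-0.36 without eIF5A-KO library 1). Immune markers summed to between 27.8 and 54.4 RPKM, with Itgam at 0 in all 4 libraries and Ptprc on 5, 0, 6 and 0 reads, and 1 of 4 tested was above 0 (median -0.41, and -0.67 without eIF5A-KO library 1). Of these 4, 1 was higher and 2 lower without overlap (backgrounds 22.4% and 19.3% of protein-coding genes). At an unadjusted limma p under 0.05 Adgre1 was higher and Lyz2 lower (backgrounds 2.86% and 4.46% of all tested genes). Adipocyte, Schwann and tenocyte markers summed to at most 92.2, 30.1 and 11.1 RPKM, with medians of -0.10, 0.017 and 0.53 over 3 tested genes each, which were -0.45, -0.34 and 1.17 without eIF5A-KO library 1. The part of these cells in the values of the members was not tested either.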

How the data were processed

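Ribosome-protected fragments were sequenced in 2 WT and 2 eIF5A-KO libraries, grouped by their titles. The titles call the assay Polysome-Seq, whereas the protocol describes RNase I digestion and isolation of protected fragments. Per the study's methods, the authors removed low-quality, rRNA and tRNA reads, mapped with TopHat2 to an Ensembl annotation and counted with HTSeq, and the deposited RPKM values were computed by the authors for each library. The strand setting of the counting, and the treatment of reads shared by near-identical genes, are not given in the sources used here. Near-identical copies or overlapping genes could therefore share reads.

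RPKM times gene length, times a library size read from the steps between values, gave whole reads for 100% of values (tolerance 0.01 read). These library sizes, by which the authors had divided, were 602863 and 471136 for WT and 906990 and 807705 for eIF5A-KO, and they are not the totals of the recovered reads (648386, 642429, 704006 and 650210). The test took genes whose mean reached 1 RPKM as log2(RPKM + 1), a scale that understates changes of low genes, with limma 3.58.1 (eBayes with a trend, R 4.3.3), with Benjamini-Hochberg adjustment over all tested genes and no covariate. Shares, intervals and descriptive correlations were computed with Python 3.11.15 and scipy 1.17.1. Intervals, like the 3-read floor, cover counting error alone, as PCR copies are not independent molecules. The main fit was also run on simulated counts with known changes. Their spread between replicates was set in advance and not taken from these libraries, so that run does not show how the fit performs here. Of the identifiers, 99.8% were found in GENCODE M21, and 99.7% of those had the same coordinates. Sequences came from GENCODE M21 and RefSeq.

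The members, lists and tests were chosen with earlier results of these data known. Values in each library are given for the members of highest mean RPKM by role (2 each), for those with an unadjusted p under 0.05, and for the 4 lowest and 4 highest log2 fold changes. Other members and single markers were named after their values were seen. Alternatives covered the pseudocount, filters on low values, scaling, the genes tested, the limma prior, base composition, the replicate block, recovered reads (limma-voom, at least 20 reads) and each library left out.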

Additional observations from a re-analysis of the deposited data

How the results depend on the processing

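No member was called under any of the 15 alternatives, and the smallest adjusted p among the 22 members of the naming rule was 0.0857, for Vcan in limma-voom. Every alternative was run for the 22 members chosen by the naming rule, and 12 of these kept their direction throughout. The number of members higher at an unadjusted p under 0.05 was 3, and became 11 with the same sum of reads over all genes, 5 among protein-coding genes only, 5 with the coding GC trend removed and 7 in limma-voom. The number lower was 0, and became 1 with protein-coding reads scaled to the same sum, 1 among protein-coding genes only and 2 in limma-voom. The median of the members became 1.08 with the same sum of reads over all genes, where the median of all genes moved to 0.49, a difference of 0.59. With a library left out, fitted on the assumption that the lone library varies like the pair of the other group, the number higher ran from 0 to 6, the number lower from 0 to 1, and the median from 0.012 without eIF5A-KO library 1 to 0.72. The difference in share between the groups then ran from 0.0181 to 1.44 percentage points. Over all tested genes, 12 were called, against 39 in limma-voom, 13 with protein-coding reads scaled to the same sum, 12 after quantile normalization and 0 under each other alternative. Directions turned for Bgn (-0.036) with protein-coding reads scaled to the same sum, for Hspg2 (0.16), Loxl1 (0.15) and Bmp1 (0.47) with the same sum of reads over all genes, and for Loxl1 (0.039) and Bmp1 (0.095) with the GC trend removed. With a library left out, Ccn1 ran from -0.039 to 0.43, Spp1 from -0.051 to 2.03, Bgn from -0.33 to 0.49, Dcn from -0.021 to 1.40, Fbln2 from -0.10 to 1.13, Lox from -0.10 to 0.33, Serpinh1 from -0.33 to 0.72 and Bmp1 from -0.37 to 0.20. Of the other tested members Tnc, Thbs1, Thbs2, Ccn2, Emilin1, Plod3, P3h1 and Crtap also turned with a library left out, within a range of -1.06 to 1.70. The cause of these shifts was not tested. Fbln5 and Loxl2 had no value at a mean of at least 5 RPKM. Depth limits the genes of few reads, such as Fbln5 and Loxl2. Eln and Fbn2 were fitted with every gene above 0 kept, and Fbn2 also in limma-voom, and neither was called.

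With the replicate number as a block, 0 members were called, 4 were higher at an unadjusted p under 0.05 and the median was 0.49. How far same-numbered libraries lay from their own group mean correlated at 0.0575 over the 11363 tested genes. With 2 libraries per group a low value cannot exclude pairing. The titles give same-numbered libraries only a shared number, so the fit without a block was kept as the main one.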
